A study of Mus musculus with 57 samples.

Results

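Synaptic adhesion genes encode the surface proteins that join the presynaptic to the postsynaptic membrane. Here 45 of them, each with a mean of at least 10 normalized estimated counts, were followed in the prefrontal cortex of mice. They were taken by name from 51456 genes in the deposited table, of which 16659 reached that mean and were tested. All 45 were among the genes tested, since the rule that chose them required the same mean.

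Females and males of strain C57BL/6N were taken at 25 days of age, either wild type (WT) or carrying 1 changed copy of Shank2 (HT, heterozygous). Lithium (a mood stabilizer), fluoxetine (which blocks serotonin reuptake) or vehicle had reached the pups in maternal milk from day 3 to day 24. In HT there were 10 mice under each treatment, 5 of each sex. In WT there were 10 under fluoxetine (5 of each sex), 9 under lithium (4 females and 5 males) and 8 under vehicle (4 of each sex). All animals came from litters whose mother delivered the treatment. The labels name neither the litter nor the Shank2 allele, and give each replicate as a sample of its group without further detail, so p-values measure the spread between these samples only.

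Adhesion pairs across the synaptic cleft are thought to align release sites with receptors and to set which synapses form between which neurons. Neurexins on the axon bind neuroligins, LRRTM proteins and, through them, postsynaptic scaffolds. The LAR-type phosphatases Ptprd, Ptprs and Ptprf bind SLITRK proteins, Il1rapl1 and the netrin-G ligand Lrrc4b. The latrophilins, which are adhesion G protein-coupled receptors, bind FLRT proteins and teneurins. Shank2 itself is a scaffold of the excitatory postsynaptic density, inside the membrane on which many of these receptors sit.

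Shank2 checked the genotype labels. Its mean was 4288 to 4486 in the HT arms and 9579 to 10477 in the WT arms, and no HT library reached a WT library (log2 difference -1.17 ± 0.035 over all treatments, limma, adjusted p = 6.52e-32). The normalized values of a library summed to 30378902 to 33234604, which the scaling brings close together, and the read depth is unknown. The labelled tissue was checked against its markers: all 9 pyramidal neuron markers were present in every library, and Slc17a7, the vesicular glutamate transporter of cortical pyramidal cells, had a mean of 58629. Markers of neighbouring tissue varied by library. The summed olfactory bulb markers ran from 1202 to 22317 and the summed striatal projection neuron markers from 6968 to 35258. WT vehicle males 2 and 3 stood apart: the median log2 deviation of the 45 genes from their means over all libraries was -0.33 and -0.22 in them, and -0.16 to 0.16 in the other 55. The main results that use them are given with and without both. The 2 were picked after the data were seen, by the low values of the 45 genes themselves. Leaving them out thus raises these genes as a set in WT vehicle by construction. That setting is no independent check of differences from that arm. In bulk tissue, fewer cells of a type and less RNA per cell cannot be told apart.

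Differences are given as log2 differences, HT minus WT or drug minus vehicle, with their standard error after the ± sign. After a mean, ± gives the SD across libraries. A gene is said to rise or fall when its adjusted p was under 0.05 over all 16659 genes. Of the 45 genes, 17 passed in at least 1 of 13 comparisons and 28 in none. The like share of all genes was not counted. For lithium over both genotypes alone, 13.3% of all genes passed. Among the members that passed in these 13 comparisons, the widest difference was 0.34, for Cntn2 under lithium in WT. Contrasts within 1 sex, given below beside these, held wider ones.

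Start-site sequences are shown for 5 genes: the 3 that were higher in HT over all treatments, and the 2 that passed for lithium in WT with any 1 library left out. Each runs from 250 bases before to 50 bases after the start in RefSeq (GRCm38.p6), 5′ to 3′ on the strand of the gene. Capitals mark a GC box (GGGCGG, or CCGCCC for the other strand) or a TATA box (TATAAA, or TTTATA for the other strand).

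Adgrl2 (chr3:148954586-148954885, minus strand): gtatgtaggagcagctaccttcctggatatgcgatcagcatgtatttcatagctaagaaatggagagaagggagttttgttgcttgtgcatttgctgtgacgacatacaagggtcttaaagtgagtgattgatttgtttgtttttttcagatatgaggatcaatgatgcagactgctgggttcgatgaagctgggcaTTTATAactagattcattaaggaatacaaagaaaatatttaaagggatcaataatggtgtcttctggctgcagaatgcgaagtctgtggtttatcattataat
Lrrtm1 (chr6:77242227-77242526, plus strand): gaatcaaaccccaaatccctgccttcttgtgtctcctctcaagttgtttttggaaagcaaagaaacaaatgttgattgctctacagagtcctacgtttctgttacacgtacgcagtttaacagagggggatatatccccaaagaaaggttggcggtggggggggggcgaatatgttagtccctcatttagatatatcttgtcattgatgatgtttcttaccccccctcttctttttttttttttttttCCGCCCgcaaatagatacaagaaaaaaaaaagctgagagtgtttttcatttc
Slitrk3 (chr3:73057017-73057316, minus strand): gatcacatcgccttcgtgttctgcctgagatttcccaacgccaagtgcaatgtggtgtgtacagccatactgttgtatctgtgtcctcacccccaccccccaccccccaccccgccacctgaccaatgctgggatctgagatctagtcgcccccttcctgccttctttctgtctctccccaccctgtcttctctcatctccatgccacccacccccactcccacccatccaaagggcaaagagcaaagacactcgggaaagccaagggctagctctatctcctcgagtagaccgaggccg
Cadm2 (chr16:67620859-67621158, minus strand): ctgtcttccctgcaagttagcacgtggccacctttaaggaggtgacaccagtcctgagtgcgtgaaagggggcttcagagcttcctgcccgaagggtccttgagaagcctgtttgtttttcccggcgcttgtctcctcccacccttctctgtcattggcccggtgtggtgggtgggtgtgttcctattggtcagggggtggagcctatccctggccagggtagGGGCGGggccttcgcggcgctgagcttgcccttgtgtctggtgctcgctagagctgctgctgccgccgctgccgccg
Cntn1 (chr15:92050915-92051214, plus strand): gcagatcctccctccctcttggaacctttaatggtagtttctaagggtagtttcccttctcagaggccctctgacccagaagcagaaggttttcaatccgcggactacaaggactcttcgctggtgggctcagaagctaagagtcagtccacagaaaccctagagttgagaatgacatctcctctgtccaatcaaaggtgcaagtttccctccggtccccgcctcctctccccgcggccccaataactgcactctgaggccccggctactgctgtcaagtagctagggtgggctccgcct

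No motif is shared by all 5 windows. The Lrrtm1 and Cadm2 windows each hold 1 GC box, in opposite orientations, Adgrl2 holds 1 TATA box on the opposite strand, and Slitrk3 and Cntn1 hold neither. RefSeq's start of Adgrl2 lies 35920 bases inside the gene as GENCODE draws it, and that of Slitrk3 lies 737 bases inside. Of the 45 genes, 36 had an entry used here, and 14 of the 36 (38.89%) held a GC box on either strand, against 9707 of 27018 windows of all genes (35.93%). A TATA box was in 2 of the 36 (5.56%) against 14.16% of all windows. The motifs did not overlap each other. The windows of the members had a median of 10 CpG dinucleotides, against 7 for all genes.

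Over all treatments together, Adgrl2, Lrrtm1 and Slitrk3 were higher in HT than in WT. Adgrl2 encodes latrophilin-2, a postsynaptic receptor of excitatory synapses. Lrrtm1 encodes a postsynaptic neurexin ligand, and Slitrk3 encodes a ligand of Ptprd known for inhibitory synapses. These were 3 of 45 members (6.67%), all higher, where 3.74% of all genes passed in either direction and 1.62% were higher. At an unadjusted p under 0.05, 15 members were higher and 2 lower, against 8.99% and 9.91% of all genes.

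Adgrl2 (ENSMUSG00000028184, chromosome 3, 148815583 to 148990555) ran from 3895 to 4846 (median 4498) in HT vehicle libraries and from 3224 to 4853 (median 3961) in WT vehicle libraries. Under fluoxetine it ran from 3982 to 5272 (median 4481) in HT and from 3395 to 5022 (median 3943) in WT. Under lithium it ran from 3683 to 5376 (median 4659) in HT and from 3506 to 4470.3 (median 4158) in WT. The ranges overlapped in each treatment, but all 10 HT fluoxetine libraries, 9 of 10 HT vehicle libraries and 9 of 10 HT lithium libraries lay above the WT median of the same treatment. The difference was 0.17 ± 0.038 over all treatments (limma, adjusted p = 0.00507), and 0.18, 0.14 and 0.19 under vehicle, fluoxetine and lithium.

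Lrrtm1 (ENSMUSG00000060780, chromosome 6, 77242689 to 77257791) showed its cleanest separation under fluoxetine, where HT libraries ran from 1462 to 1825 (median 1563) and WT libraries from 1350.3 to 1515 (median 1425). There 9 of 10 HT libraries lay above every WT library. Under vehicle the values were 1446 to 1827 (median 1689.6) in HT and 1209 to 1999.9 (median 1527) in WT, with both extremes held by WT. Under lithium they were 1382 to 1835 (median 1558) in HT and 1289 to 1674 (median 1456) in WT. The pooled difference was 0.13 ± 0.034 (adjusted p = 0.0221).

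Slitrk3 (ENSMUSG00000048304, chromosome 3, 73047265 to 73057803) differed most under vehicle, at 2303 to 2613 (median 2520.0) in HT and 1805 to 2469.6 (median 2333) in WT, and 7 of 10 HT libraries lay above every WT library. The ranges overlapped widely under fluoxetine (2233 to 2464 in HT, 2102 to 2475 in WT) and lithium (2103 to 2712 in HT, 2083 to 2370.3 in WT). The pooled difference was 0.087 ± 0.024 (adjusted p = 0.0279).

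**Figure D1:**
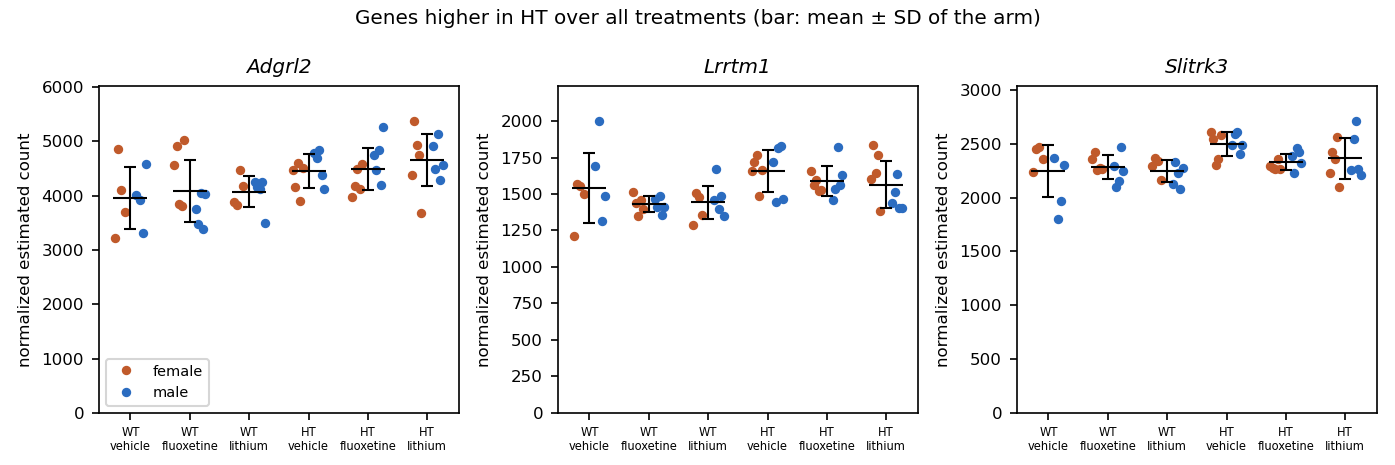
Normalized estimated counts (y axis, from 0) of Adgrl2, Lrrtm1 and Slitrk3 in each library, by genotype and treatment (x axis). Points are libraries, coloured by sex, and bars are the mean ± SD of the arm. Adgrl2 has a higher mean in HT under each treatment, and the 2 lowest Slitrk3 values are WT vehicle males.

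All 3 genes passed with each of the 57 libraries left out in turn and under 11 other settings. With WT vehicle males 2 and 3 both left out, Adgrl2 (0.15, adjusted p = 0.0219) and Lrrtm1 (0.13, adjusted p = 0.0156) still rose, and Slitrk3 did not pass (0.061, adjusted p = 0.132). Cntnap1, an axonal partner of contactin at the paranode, then fell in HT (-0.13, adjusted p = 0.049), against -0.11 (adjusted p = 0.0841) with all libraries. With all libraries, Pvalb and Slc32a1 fell and Vip rose among 7 interneuron markers, and Gjb6 and Ntsr2 fell among 7 astrocyte markers. C1qb of microglia (-0.16), Slc2a1 of endothelium (-0.27) and Clic6 of the choroid plexus (-0.96) also fell. All 8 oligodendrocyte markers had a negative difference (median -0.21, none passing). Of these 8, 7 had an unadjusted p under 0.05, as did 18.9% of all genes. The 9 pyramidal markers were all positive (median 0.053, none passing). The part of these markers in the result was not tested.

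All 3 neuroligins, the postsynaptic neurexin receptors, had positive pooled differences that missed the threshold (0.083, 0.050 and 0.085 for Nlgn1, Nlgn2 and Nlgn3, smallest adjusted p 0.11). The 3 LAR-type phosphatases lay between 0.055 and 0.090, and the 3 calsyntenins, cadherin-related postsynaptic proteins, between -0.053 and -0.0041. The 6 contactins ran from -0.064 to 0.096 and the 4 CADM nectin-like proteins from -0.063 to 0.070. Within the netrin-G ligands, Lrrc4c had 0.088 (adjusted p = 0.0677), and Lrrc4 and Lrrc4b were both under 0.007. Over the 45 genes the median was 0.034, and it was 0.00085 over all genes tested.

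Within vehicle libraries, no member passed for genotype, where 0.762% of all genes did. At an unadjusted p under 0.05, 19 members were higher in HT and none lower, while 8.37% of all genes were higher and 6.40% lower by that measure. In all, 39 of 45 had a positive difference and the median was 0.11, against -0.0026 over all genes. The smallest adjusted p-values belonged to Slitrk3, Slitrk1 and Cadm1. In the same comparison all 9 pyramidal markers were positive (median 0.15, none passing) and all 12 striatal markers negative (median -0.67, none passing, 9 at an unadjusted p under 0.05). The summed striatal markers ran from 7790 to 9384 in HT vehicle and from 7121 to 35258 in WT vehicle libraries. Of 7 interneuron markers, 4 were lower and 1 higher at an unadjusted p under 0.05, and Ntsr2 of astrocytes (-0.26) and Clic6 of the choroid plexus (-1.87) fell. All 8 oligodendrocyte markers (median -0.22) and all 8 olfactory bulb markers (median -0.54) were negative, none passing. The part of these markers in the result was not tested.

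Slitrk1, a SLITRK of excitatory synapses, had 2505 to 3178 (median 3008) in HT and 2365 to 3029 (median 2625) in WT (difference 0.16 ± 0.045, adjusted p = 0.0697). Cadm1, which encodes SynCAM1, had 5425 to 6127 (median 5705) in HT and 3869.7 to 5652 (median 5313) in WT (0.18 ± 0.047, adjusted p = 0.0624). For Slitrk3 the difference was 0.16 ± 0.043 (adjusted p = 0.0592). In these 3 genes, 5, 6 and 7 of 10 HT libraries lay above every WT library, in the order given.

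The WT vehicle libraries differed among themselves. The median log2 deviation of the 45 genes was -0.11 to 0.023 in the 6 other than males 2 and 3. HT vehicle libraries ran from -0.065 to 0.11 and WT lithium libraries from -0.049 to 0.074. In WT vehicle male 3, only 3 of the 45 genes lay above their mean, and its summed astrocyte markers (46636) were the highest of all libraries. WT vehicle male 2 had a rank correlation of -0.33 between its deviations and transcript length across genes, the lowest of any library. Without both libraries, the median of the 45 genes for genotype in vehicle went from 0.11 to 0.050, and Slitrk1, Slitrk3 and Cadm1 had differences of 0.13, 0.083 and 0.11.

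**Figure D2:**
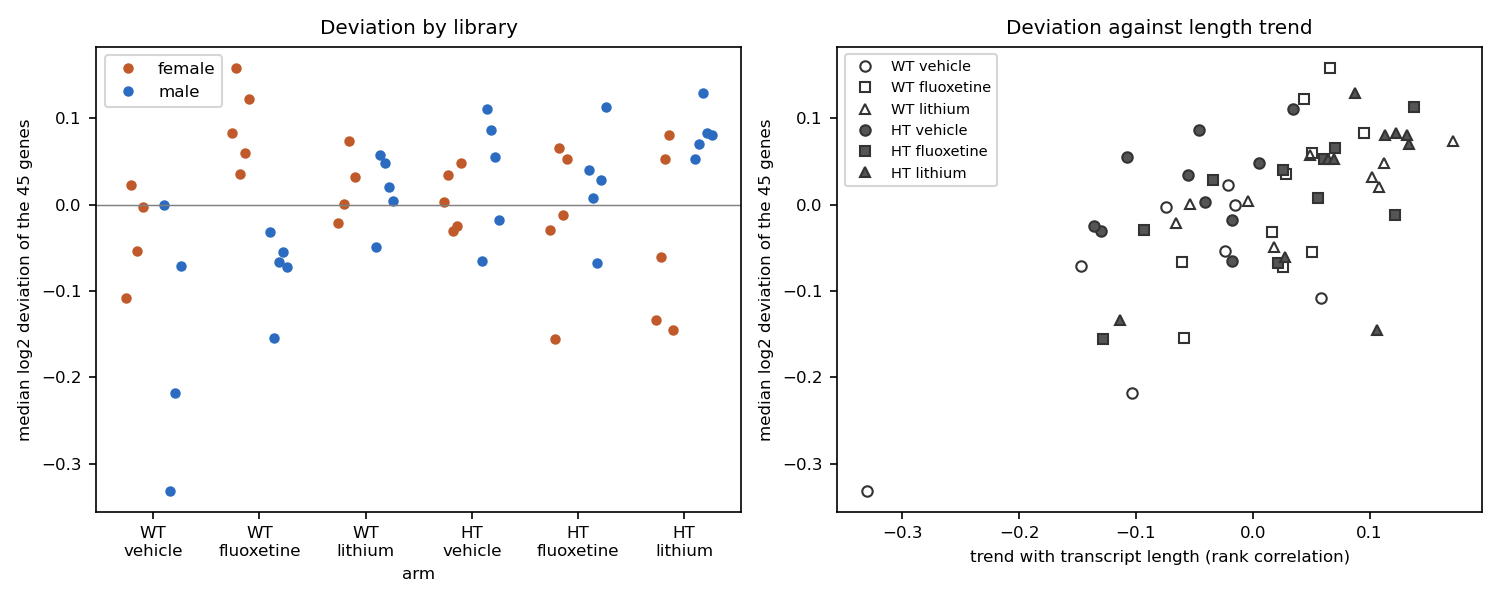
Left, the median log2 deviation of the 45 genes in each library (y axis) by arm (x axis), coloured by sex. Right, the same deviation against the rank correlation of each library's deviations with transcript length (x axis); open symbols are WT, filled are HT. WT vehicle males 2 and 3 lie lowest at -0.33 and -0.22, and the 5 WT fluoxetine females all lie above the 5 WT fluoxetine males.

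Across the 57 libraries, this deviation went with the level of pyramidal neuron markers (Pearson's r = 0.694, Spearman's rho = 0.796) and with the length trend (r = 0.64, rho = 0.586). It went against the level of astrocyte (r = -0.537, rho = -0.58), olfactory bulb (r = -0.506, rho = -0.529) and choroid plexus markers (r = -0.454, rho = -0.545). The remaining marker lists had r from -0.395 (oligodendrocyte precursors) to 0.222 (striatal projection neurons). These are descriptions of libraries that share groups and processing, and carry no test. The members are long genes: their median span was 93.0 kb, against 22.3 kb for all genes, and 34 of the 45 exceeded that median. Their median transcript length was 3215.5 bases against 1560.

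Split by sex, the vehicle comparison gave 10 members that rose in HT males, where 4.01% of all genes passed, and none in females, where 0.024% did. In females 5 members had an unadjusted p under 0.05, where 6.58% of all genes did. The 10 were Nrxn3, Nlgn1, Nlgn3, Slitrk1, Slitrk3, Adgrl3, Ptprd, Ptprs, Ptprf and Il1rapl1. Nlgn1 differed by 0.37 ± 0.079 in males (adjusted p = 0.0119) and by 0.020 ± 0.079 in females. The sex difference of the genotype effect itself passed for no member and for no gene (limma, 0 adjusted, 2463 genes and 15 members at an unadjusted p under 0.05). WT vehicle males 2 and 3 are 2 of the 4 WT vehicle libraries behind the male comparison. Without them none of the 45 passed in males (limma, 0.018% of all genes), 2 had an unadjusted p under 0.05 and the median was 0.065.

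Under fluoxetine, no member passed for genotype (0.222% of all genes did), and 2 were higher and 2 lower at an unadjusted p under 0.05, against 4.87% and 5.61% of all genes. Slitrk2, on the X chromosome, ran from 809 to 975 (median 917) in HT and from 937 to 1111 (median 998) in WT (-0.17 ± 0.051, adjusted p = 0.167). Slitrk4, also X-linked, had 1259.6 to 1798 (median 1662) in HT and 1495 to 2043 (median 1784) in WT (-0.13 ± 0.057, adjusted p = 0.386). Under lithium, again no member passed (0.114% of all genes), with 3 higher and 2 lower at an unadjusted p under 0.05, against 3.44% and 4.31%. Slitrk2 then had the opposite sign, 0.13 ± 0.053 (adjusted p = 0.465), with 911 to 1201 in HT and 842 to 1122 in WT. Cntnap1 had -0.20 ± 0.066 (adjusted p = 0.322), with 5152 to 8039 (median 6597) in HT and 5925 to 8469.6 (median 7714) in WT. For genotype under fluoxetine, 5 of 7 endothelial and 4 of 8 microglia markers had an unadjusted p under 0.05, against 10.5% of all genes. No pyramidal, striatal or olfactory bulb marker did. Under lithium 3 of 7 interneuron and 3 of 7 astrocyte markers did, against 7.75% of all genes. The part of these markers was not tested. Over the 3 treatments, 13 of the 45 genes (28.9%) were higher in HT each time and 4 (8.89%) lower each time, against 18.1% and 20.2% of all genes.

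**Figure D3:**
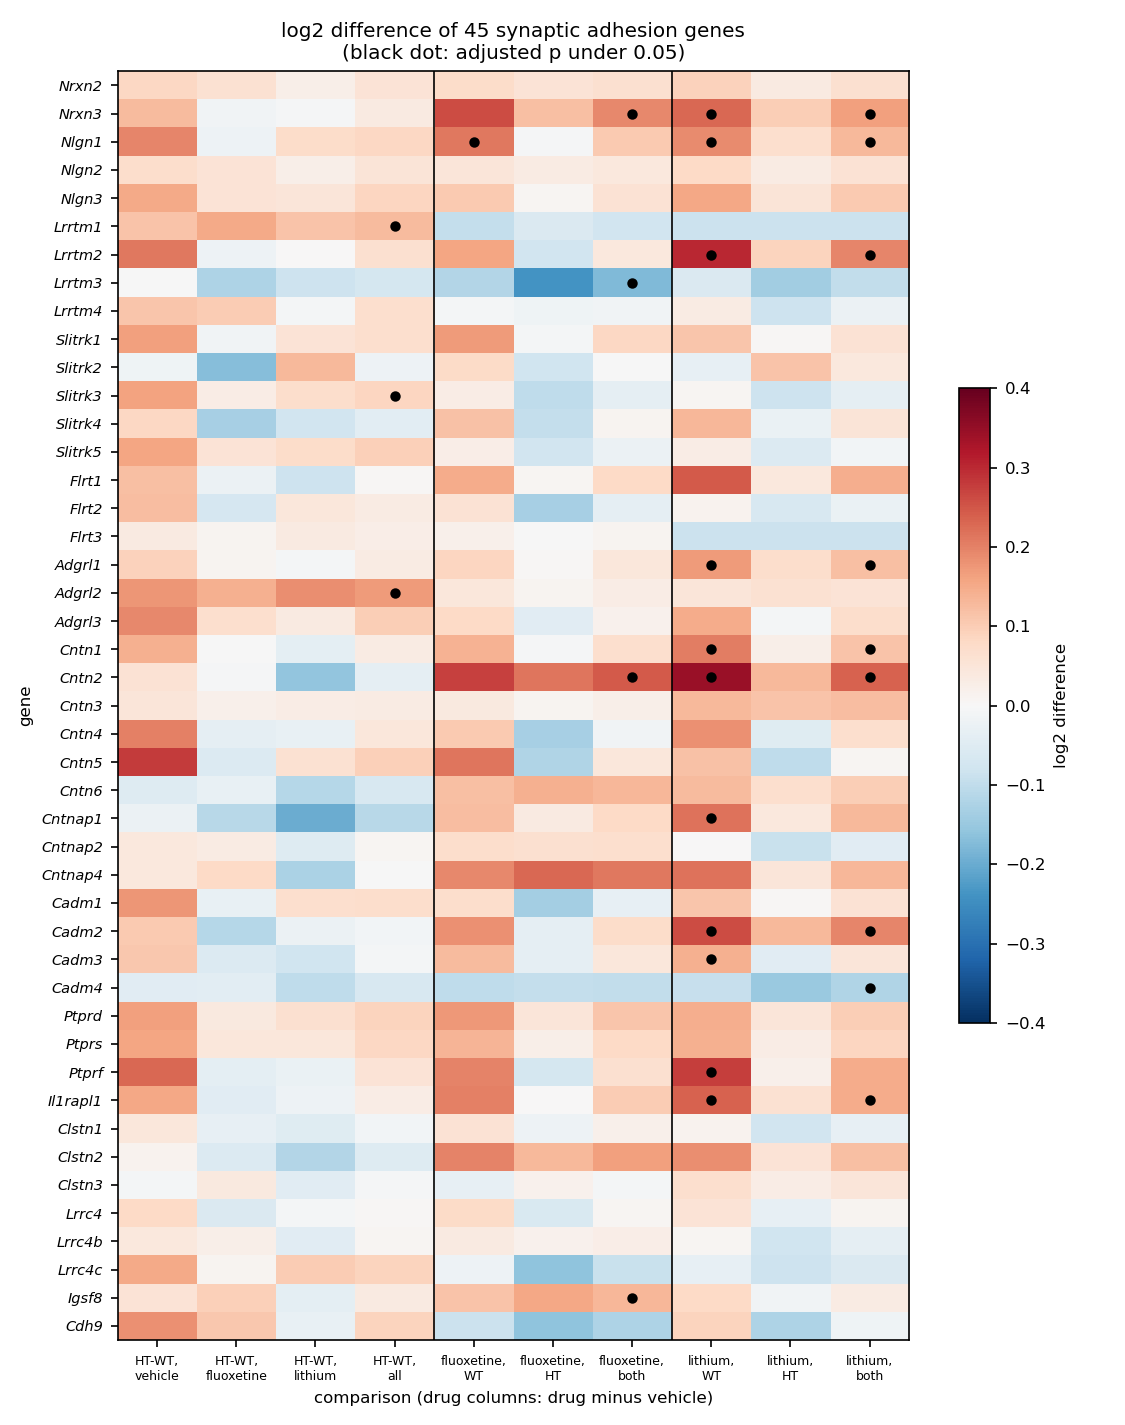
Log2 differences (colour, red higher and blue lower) of the 45 genes (rows) in 10 comparisons (columns): HT minus WT in each treatment and over all, and each drug minus vehicle in WT, in HT and over both. Black dots mark an adjusted p under 0.05; 11 lie in the column for lithium in WT and 3 in that for HT minus WT over all treatments.

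Lithium in WT gave the most calls among the members. Against vehicle, 11 of 45 rose (24.4%) and none fell, where 8.53% of all genes passed and 5.45% rose. They span both sides of the synapse: Nrxn3 on the axon, the neurexin receptors Nlgn1 and Lrrtm2, the latrophilin Adgrl1, the contactin group Cntn1, Cntn2 and Cntnap1, the homophilic CADM proteins Cadm2 and Cadm3, the phosphatase Ptprf and its class of partner Il1rapl1. The comparison shares its WT vehicle libraries with those on genotype above and fluoxetine below.

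Cadm2 (ENSMUSG00000064115, chromosome 16, 66655421 to 67620908), or SynCAM2, an axonal adhesion protein, had the smallest adjusted p. WT vehicle libraries ran from 6949 to 11820.1 (median 9878) and WT lithium libraries from 10443 to 12808 (median 11885). All 9 lithium libraries lay above the vehicle median and 5 above every vehicle library (0.26 ± 0.066, adjusted p = 0.00946). Cntn1 (ENSMUSG00000055022, chromosome 15, 92051165 to 92341967), a contactin of axons and of the node of Ranvier, ran from 10846 to 14156 (median 12639) under vehicle and from 13464 to 15939.9 (median 14837) under lithium. For Cntn1, 6 of 9 lithium libraries lay above every vehicle library (0.20 ± 0.054, adjusted p = 0.0148).

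Lrrtm2, a postsynaptic organizer of excitatory synapses, ran from 1573 to 2384 (median 2155) under vehicle and from 2233 to 2789.5 (median 2594) under lithium (0.30 ± 0.087, adjusted p = 0.0231). For Lrrtm2, 7 of 9 lithium libraries lay above every vehicle library, 1 of them by less than the rounding of the values. Nlgn1, the neuroligin of excitatory synapses, ran from 1727 to 2759 (median 2369.6) and from 2313 to 2851 (median 2598) (0.19 ± 0.057, adjusted p = 0.0297). Only 1 lithium library of Nlgn1 exceeded every vehicle library, while 8 of 9 lay above the vehicle median.

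Nrxn3 ran from 4175 to 9088 (median 6740.0) under vehicle and from 6598 to 8609 (median 7818) under lithium (0.23 ± 0.073, adjusted p = 0.0393). Its vehicle values spread more widely, on both sides of the lithium values. Adgrl1, latrophilin-1, had 21166 to 29892 (median 26165) and 27019.9 to 30491 (median 29245) (0.17 ± 0.047, adjusted p = 0.0188). Il1rapl1, a postsynaptic receptor of the interleukin-1 receptor family, had 545 to 926 (median 767) and 805 to 941 (median 874) (0.24 ± 0.065, adjusted p = 0.0187). Cntn2, or TAG-1, which joins axons to myelin beside the node, had 2611 to 3314 (median 2806) and 2925 to 4178 (median 4005) (0.34 ± 0.10, adjusted p = 0.0309).

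The remaining calls were Cntnap1, Ptprf and Cadm3. Cntnap1 had 5422 to 7257 (median 6555) and 5925 to 8469.6 (median 7714) (0.22 ± 0.069, adjusted p = 0.039). Ptprf, or LAR, had 2738 to 5812 (median 5032) and 5086 to 6654 (median 5741) (0.28 ± 0.083, adjusted p = 0.0282). Cadm3 had 13963 to 18424 (median 17818) and 16297 to 20156 (median 19116) (0.14 ± 0.047, adjusted p = 0.0481). The ranges overlapped in all 3, and 7, 3 and 6 of 9 lithium libraries lay above every vehicle library, in the order given. Just short of the threshold were Flrt1, a latrophilin ligand, Nlgn3 and Cntn4, a neural contactin. Flrt1 ran from 676 to 1112 (median 994) under vehicle and from 945 to 1208 (median 1167) under lithium (adjusted p = 0.0638). Nlgn3 ran from 3442 to 5931 (median 5487) and from 5493 to 6337 (median 5642) (adjusted p = 0.0782). Cntn4 ran from 1515 to 2008 (median 1677) and from 1646 to 2229.7 (median 1999) (adjusted p = 0.0854).

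The count moved with the fit and with single libraries. Fitted on the groups compared alone, 1 member passed, and with the length trend of each library as a term none did. Median trends were -0.049 in WT vehicle, 0.036 in WT fluoxetine and 0.049 in WT lithium libraries. In HT they were -0.043, 0.041 and 0.097 in the same order. The trend thus differed with treatment, and fits with this term, here and below, cannot tell it from a drug effect. Without WT vehicle male 2 the count was 3, also 3 without WT lithium female 4, and 14 without WT vehicle male 1. It was 5 without WT vehicle female 3, 6 without WT lithium female 3, and 7 without WT lithium male 2, WT lithium male 3, WT vehicle female 4 or WT vehicle male 3. Without WT vehicle males 2 and 3 it was 0, with a median of 0.058 in place of 0.12, and Cadm2 and Cntn1 had 0.17 and 0.15 (adjusted p = 0.174 and 0.186). Cadm2 and Cntn1 were the 2 members that passed with each of the 17 libraries left out singly. In these 17 fits, 796 to 1979 of all genes passed, against 1421 with all libraries. Of the 9 pyramidal markers, 8 were positive in this comparison (median 0.19, none passing), and the 8 olfactory bulb markers were all negative (median -0.48, none passing). Of 5 markers of oligodendrocyte precursors, Olig2 fell (-0.35, adjusted p = 0.0229) and 3 were lower at an unadjusted p under 0.05. The part of these markers in the result was not tested.

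In males, 15 members passed for lithium in WT, 14 higher and Cadm4 lower, where 10.2% of all genes passed. In females none passed, with 0% of all genes, and 4 members had an unadjusted p under 0.05, where 7.37% of all genes did. Without WT vehicle males 2 and 3, none of the 45 passed in males (0.042% of all genes), 5 had an unadjusted p under 0.05 and the median was 0.039. Cadm2 differed by 0.43 ± 0.090 in males and by 0.094 ± 0.095 in females. The difference between the sexes passed for no member (limma, 0 genes, 1326 of all genes and 10 members at an unadjusted p under 0.05).

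In HT, lithium moved no member past the threshold, where 0.888% of all genes passed. At an unadjusted p under 0.05, 2 members were higher and 4 lower, against 5.68% and 7.14% of all genes, and the median was 0.020. Cadm4, a CADM protein of myelinating cells, had the smallest p, at 7052 to 9510.3 (median 7799.5) under vehicle and 6188 to 7722 (median 7200.4) under lithium. No lithium library reached the vehicle median (-0.15 ± 0.044, adjusted p = 0.0834). Without WT vehicle males 2 and 3, which here enter only the shared spread, Cadm4 passed at the same difference (limma, adjusted p = 0.0373). Slitrk2 ran from 792 to 1064 (median 943) under vehicle and from 911 to 1201 (median 1023) under lithium (0.12 ± 0.051, adjusted p = 0.314). Lrrc4b, netrin-G ligand 3, ran from 5178 to 5994 (median 5589.6) and from 4819 to 5811 (median 5263) (-0.080 ± 0.036, adjusted p = 0.336). Cadm2 had 0.13 ± 0.060 in HT (adjusted p = 0.34), against the larger value in WT. The lithium effect differed between the genotypes for no member by limma. None of all genes passed for that difference (0%), and 4 members, all lower in HT, had an unadjusted p under 0.05, against 4.33% of all genes that were lower. The median over members was -0.10, and -0.050 without WT vehicle males 2 and 3.

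Over both genotypes, lithium raised 8 members and lowered 1, where 13.3% of all genes passed, 7.16% higher and 6.14% lower. Cadm2 (0.20 ± 0.045, adjusted p = 0.00242), Lrrtm2 (0.20), Cntn2 (0.24), Nrxn3 (0.16), Il1rapl1 (0.15), Nlgn1 (0.13), Adgrl1 (0.12) and Cntn1 (0.11) rose. Cadm4 fell (-0.12 ± 0.032, adjusted p = 0.00892). Among 5 markers of oligodendrocyte precursors, Olig2 (-0.31) and Cspg4 (-0.19) fell. Of 9 pyramidal markers, Neurod6 (0.20) rose. The part of these markers was not tested. Cadm4 had 7151 to 10486 (median 8081) in WT vehicle and 7207 to 8113 (median 7630.5) in WT lithium libraries. Without WT vehicle males 2 and 3, Cadm2 (0.15, adjusted p = 0.0226) and Cadm4 (-0.10, adjusted p = 0.0299) still passed and the other 7 did not. With the length trend as a term, none of the 9 passed, Cadm2 having 0.020 and Nrxn3 turning to -0.037.

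**Figure D4:**
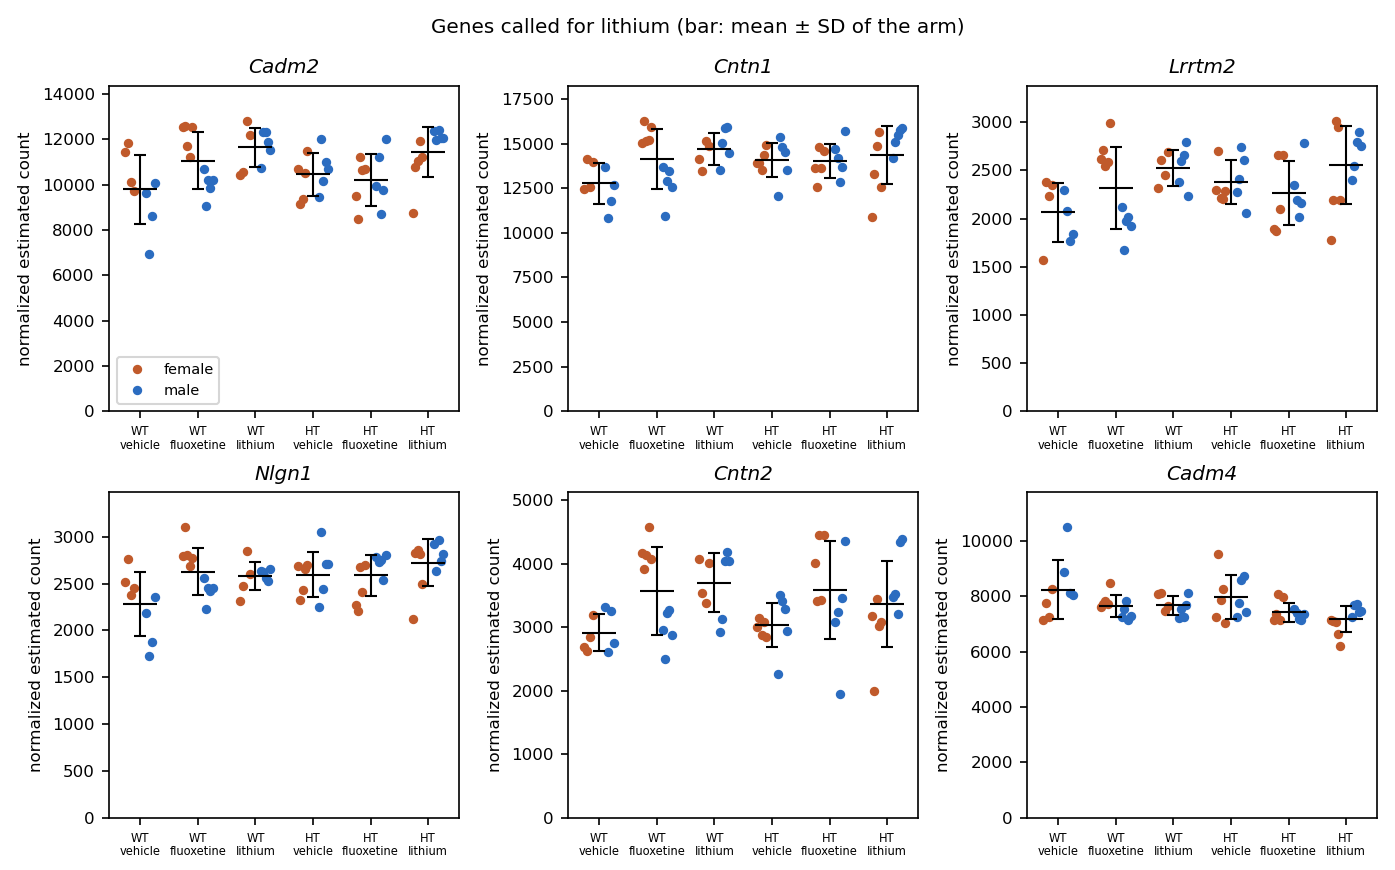
Normalized estimated counts (y axis, from 0) of 6 genes that passed for lithium, by genotype and treatment (x axis). Points are libraries, coloured by sex, and bars are the mean ± SD of the arm. Cadm2, Cntn1, Lrrtm2, Nlgn1 and Cntn2 have their lowest arm mean in WT vehicle, and Cadm4 its highest.

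Fluoxetine in WT raised 1 member, Nlgn1, where 0.84% of all genes passed and 0.324% rose. Nlgn1 ran from 1727 to 2759 (median 2369.6) under vehicle and from 2228 to 3099 (median 2623) under fluoxetine, and 9 of 10 fluoxetine libraries lay above the vehicle median (0.21 ± 0.056, adjusted p = 0.0491). The call held in 4 of 18 fits that left out 1 library. It did not hold without WT vehicle male 2, and with WT vehicle males 2 and 3 both left out the value was 0.13 (adjusted p = 0.598). At an unadjusted p under 0.05, 13 members were higher and 1 lower, against 8.37% and 6.87% of all genes, and the median of the 45 was 0.085.

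Next by p were Slitrk1, Nrxn3 and Il1rapl1. Slitrk1 had 2365 to 3029 (median 2625) under vehicle and 2371 to 3501 (median 2939.6) under fluoxetine (0.17 ± 0.045, adjusted p = 0.053). Nrxn3 had 4175 to 9088 (median 6740.0) under vehicle and 7261 to 8681 (median 7672) under fluoxetine (0.26 ± 0.071, adjusted p = 0.0576). Il1rapl1 had 545 to 926 (median 767) under vehicle and 744 to 957 (median 856) under fluoxetine (0.20 ± 0.064, adjusted p = 0.101).

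The response of WT mice to fluoxetine differed between the sexes for Cdh9, Igsf8 and Clstn3. Cdh9 encodes a classical cadherin of specific hippocampal synapses, Igsf8 an immunoglobulin protein bound to tetraspanins, and Clstn3 a postsynaptic calsyntenin that binds neurexins. All 3 had the lower value in males, 3 of 45 members, where 2.53% of all genes passed for this difference and 0.894% were lower in males. The split was examined after the data had been seen. Within males 4 members passed, Nrxn3 and Il1rapl1 higher and Cdh9 and Cadm4 lower, where 2.83% of all genes did. Within males but without WT vehicle males 2 and 3, which leaves 2 vehicle libraries, none of the 45 passed (limma, 0% of all genes) and 4 had an unadjusted p under 0.05. Within females Igsf8 alone passed, where 0.018% of all genes did.

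Cdh9 in WT females was 334, 647, 605 and 706 under vehicle and 774, 805, 845, 684 and 754 under fluoxetine. In WT males it was 855, 719, 508 and 561 under vehicle and 456, 282, 463, 513 and 380.2 under fluoxetine. Under fluoxetine every female lay above every male, and 4 of the 5 treated males lay below every vehicle male. Cdh9, Igsf8 and Clstn3 are shown because of this sex difference, and the share of all genes that separate likewise was not counted. The effect was 0.48 ± 0.17 in females (adjusted p = 0.152) and -0.66 ± 0.17 in males (adjusted p = 0.0288), a difference of -1.14 ± 0.24 (adjusted p = 0.0132).

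Igsf8 in WT females was 3570.2, 3575, 3859 and 4176 under vehicle and 4829.8, 5158, 5098, 4923 and 4513 under fluoxetine, with no overlap. In WT males it was 4412, 4812, 3955 and 4409 under vehicle and 4162, 3504, 4205, 3980.4 and 4029 under fluoxetine. The effect was 0.37 ± 0.073 in females (adjusted p = 0.0362) and -0.14 ± 0.073 in males (adjusted p = 0.247), a difference of -0.52 ± 0.10 (adjusted p = 0.0132). Clstn3 had means of 12337 ± 719 and 13307 ± 452 in females (n = 4 and 5) and of 12831 ± 1058 and 11357 ± 407 in males (n = 4 and 5). Its difference of effects was -0.28 ± 0.081 (limma, adjusted p = 0.0459).

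Cdh9 and Igsf8 passed for this difference in 16 of 18 fits that left out 1 library and Clstn3 in 5 of 18. Without WT vehicle female 1, whose Cdh9 value was the lowest of the WT vehicle libraries, the differences were -0.90, -0.49 and -0.25 for Cdh9, Igsf8 and Clstn3 (adjusted p = 0.116, 0.106 and 0.186). Without WT vehicle male 2 the adjusted p was 0.051 for Cdh9, 0.0509 for Igsf8 and 0.142 for Clstn3. Without WT vehicle males 2 and 3 the differences were -1.24, -0.52 and -0.30 (limma, adjusted p = 0.0418, 0.0418 and 0.0817). Beside this, the summed olfactory bulb markers were 1390 to 3199 in WT fluoxetine females and 7686 to 18113 in WT fluoxetine males. The summed striatal markers were 7827 to 28009 in these females and 7070 to 8365 in the males. WT vehicle female 1 had the highest olfactory sum of all libraries (22317). The part of these markers in the sex difference was not tested.

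**Figure D5:**
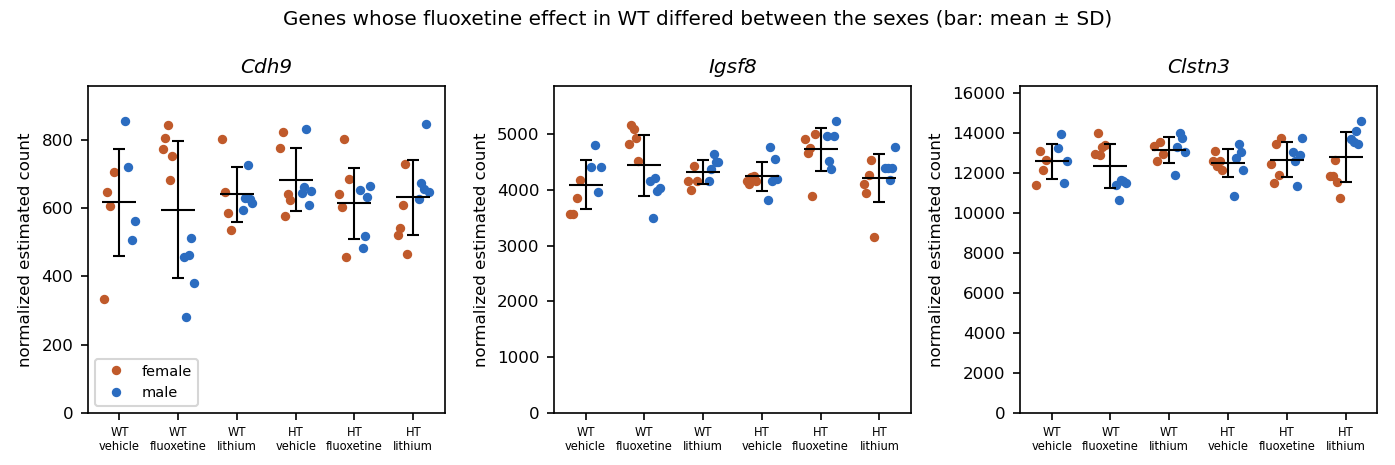
Normalized estimated counts (y axis, from 0) of Cdh9, Igsf8 and Clstn3 by genotype and treatment (x axis). Points are libraries, coloured by sex, and bars are the mean ± SD of the arm. In the WT fluoxetine arm all 5 females lie above all 5 males for each gene. The genes are shown because of their sex difference, and the share of all genes that separate likewise was not counted.

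In HT, fluoxetine moved no member past the threshold, where 0.33% of all genes passed, with 4 higher and 6 lower at an unadjusted p under 0.05, against 6.98% and 7.6%. Lrrtm3, a postsynaptic neurexin ligand, ran from 1319 to 1820.0 (median 1538) under vehicle and from 1094 to 1443 (median 1344) under fluoxetine. No fluoxetine library reached the vehicle median (-0.24 ± 0.066, adjusted p = 0.0732). Without WT vehicle males 2 and 3, which here enter only the shared spread, Lrrtm3 passed at the same difference (limma, adjusted p = 0.0364). Lrrc4c, netrin-G ligand 1, had 4264 to 4974 (median 4529) under vehicle and 3655 to 4634 (median 4147) under fluoxetine (-0.16 ± 0.048, adjusted p = 0.105). Igsf8 had 3824 to 4771 (median 4179) under vehicle and 3886 to 5235 (median 4839) under fluoxetine, with 9 of 10 fluoxetine libraries above the vehicle median (0.15 ± 0.049, adjusted p = 0.12). At an unadjusted p under 0.05 were 5 of 8 olfactory bulb, 4 of 8 microglia, 4 of 7 interneuron and 3 of 5 choroid plexus markers. The share of all genes was 14.6%, and no astrocyte or oligodendrocyte marker was under 0.05. The summed olfactory bulb markers had a median of 2150 in HT vehicle and 5866 in HT fluoxetine libraries. The part of these markers in the result was not tested.

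Over both genotypes, fluoxetine raised Nrxn3 (0.19 ± 0.049, adjusted p = 0.0146), Cntn2 (0.24 ± 0.070, adjusted p = 0.0309) and Igsf8 (0.13 ± 0.035, adjusted p = 0.0192). It lowered Lrrtm3 (-0.18 ± 0.048, adjusted p = 0.0224). These were 4 of 45 members (8.89%), where 4.75% of all genes passed, 1.68% higher and 3.07% lower. In the same comparison Olig2 (-0.33), Vip (-0.21), Aif1 of microglia (-0.27) and Cldn5 of endothelium (-0.26) fell among the markers. Of the 9 markers listed for pyramidal neurons, Bcl11b (0.26) rose. The mean log2 deviation of these 9 had a median of 0.020 in HT vehicle and -0.030 in HT fluoxetine libraries. In WT the median was -0.086 under vehicle and -0.047 under fluoxetine. The part of the markers in the result was not tested. In WT, Lrrtm3 went from 1244 to 1923 (median 1554) under vehicle to 1246 to 1695 (median 1428) under fluoxetine, all within the vehicle range. Cntn2 had 2261 to 3507 in HT vehicle and 1953 to 4457 in HT fluoxetine libraries, the treated spread being the wider. Without WT vehicle males 2 and 3, Lrrtm3 (-0.18, adjusted p = 0.0285) and Igsf8 (0.13, adjusted p = 0.0429) still passed and Nrxn3 and Cntn2 did not. With the length trend as a term none of the 4 passed, Igsf8 having 0.15 (adjusted p = 0.0646).

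Fluoxetine's effect did not differ between the genotypes by limma for any member, nor for any gene (0% of all genes). At an unadjusted p under 0.05, 13 members had a lower effect in HT and none a higher one, against 4.79% of all genes that were lower, and 39 of the 45 were negative with a median of -0.11, against -0.0016 over all genes. The smallest p belonged to Cadm1 (-0.21 ± 0.065, adjusted p = 0.492). Without WT vehicle males 2 and 3 the median over the members was -0.039. Between males and females over all groups no member passed (0.108% of all genes) and none had an unadjusted p under 0.05. The 4 X-linked members, Nlgn3, Slitrk2, Slitrk4 and Il1rapl1, had differences of -0.048 to -0.0078, male minus female.

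The other members are given by family. Nrxn2, the other neurexin among the members, had 0.081 for genotype in vehicle and 0.092 for lithium in WT, neither passing. Lrrtm4, a ligand of neurexins and glypicans, had 0.068 for genotype over all treatments (adjusted p = 0.251), and Slitrk5 had 0.094 (adjusted p = 0.0996). The 3 FLRT proteins, Flrt1, Flrt2 and Flrt3, ran from 0.0043 to 0.033 for genotype and from -0.087 to 0.25 for lithium in WT. Adgrl3, the third latrophilin, had 0.097 for genotype (adjusted p = 0.244).

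Among contactins, Cntn3, Cntn4, Cntn5 and Cntn6 passed in no comparison, and the 6 contactins ran from 0.12 to 0.34 for lithium in WT. Cntnap2 and Cntnap4, the neuronal CNTNAP genes, had 0.0017 and 0.22 there, and the 3 CNTNAP genes ran from 0.067 to 0.21 for fluoxetine over both genotypes. The calsyntenins Clstn1, Clstn2 and Clstn3 ran from 0.015 to 0.19 for lithium in WT. Ptprd and Ptprs had 0.15 and 0.14 in that comparison, and Lrrc4 had 0.055.

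Other genes of the pathway were followed in 3 lists. Of 66 further adhesion genes, 11 rose in HT over all treatments and none fell, where 1.62% of all genes rose. They included Pcdh19, an X-linked protocadherin (0.25, adjusted p = 6.07e-06), Adgrb3, a receptor for C1q-like proteins (0.11, adjusted p = 0.00277), Cdh2, or N-cadherin (0.085, adjusted p = 0.00665), and Chl1, an L1 family protein (0.15, adjusted p = 0.00985). Of 31 secreted organizers and their receptors, C1ql3 (0.17) and Nptxr (0.12) rose and Lgi2 (-0.25) fell. Of 42 intracellular partners, Caskin1 and Mpp2 rose and Mpp3 and Ppfia4 fell. Under lithium in WT, 13 of the 66 further adhesion genes rose, where 5.45% of all genes did, among them Opcml (0.27), Chl1 (0.34), Cdh12 (0.41) and Tenm1 (0.47). In that comparison Lgi1, Adam22 and Nptxr rose among the 31, and 7 of the 42 partners rose and Ppfia4 fell.

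Within vehicle libraries 7 of the 66 further adhesion genes rose in HT, as did 88 of 16659 genes, with Pcdh19 (0.35) and Chl1 (0.32) again among them. C1ql3 (0.29) and Nptxr (0.23) rose among the 31 and Ppfia4 (-0.22) fell among the 42. Pcdh19, C1ql3, Nptxr and Chl1 were thus among those that passed for genotype both in vehicle libraries and over all treatments, which include the former. With 1 library left out in turn, 34 to 394 of all genes passed for genotype in vehicle, against 127 with all libraries.

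Members differed widely in level. Per kilobase of the longest coding transcript, Clstn1 had a mean of 10643 normalized counts, the highest, and Cntn5 71.0, the lowest. Cadm4 (3548), Cadm3 (3516), Adgrl1 (3412) and Clstn3 (3156) came next after Clstn1. Among the 3 neuroligins, Nlgn2 of inhibitory synapses (1916) was above Nlgn3 (664) and Nlgn1 (218). The 4 LRRTM genes ran from 261 (Lrrtm4) to 605 (Lrrtm1). The steadiest genes within groups were Lrrc4b and Nrxn2, with an SD of 0.079 and 0.082 on the log2 scale, and the least steady were Cntn5 (0.30), Cdh9 (0.26), Cntnap4 (0.25) and Cntn2 (0.22).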

How the data were processed

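RNA of the prefrontal cortex was sequenced in 57 mice with a stranded mRNA kit, per the labels' protocols. The deposited values are a non-negative signal per gene and library, taken as normalized estimated counts: Salmon 0.11.2, R 3.6.0 and DESeq2 1.19.11 with GRCm38 are named in the submitters' processing notes. For the annotation release, filters and strand setting: not given in the sources used here. Salmon splits reads among similar transcripts, and genes that overlap others carry that uncertainty. Symbols were matched for 51285 of 51456 identifiers, and coordinates are from a GENCODE annotation of GRCm38. 0 sample columns were left unused.

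A count test was planned for counts and limma for normalized values. The table is normalized, so differences were tested with limma 3.58.1 (R 4.3.3, trend and robust moderation) on log2(value + 1), which understates changes of low genes. All 57 libraries entered 1 fit of 12 groups of genotype, treatment and sex. Effects are means of the female and male effects, and p-values were adjusted by Benjamini-Hochberg over 16659 genes. Intervals of reads could not be given since read depth is unknown. Members and lists were chosen with earlier results of these data known. Named are members called in any comparison, up to 3 more by p within an arm, Shank2, and up to 4 called genes per list. Cdh9 and Clstn3, and the genes named for level or for a marker, were chosen after their values were seen. Alternatives covered the pseudocount, minimum mean, fit, scaling, library weights, replicate number, length trend, sex and each library left out.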

Additional observations from a re-analysis of the deposited data

Results flagged for a closer look

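In groups of 4 or 5 libraries, 17 members and the median deviation of all 45 were checked. Of 216 groups tested, 10 held 1 library far from the rest. Chance marks about 1 in 20 groups. High values were Nlgn1 in WT fluoxetine female 2 (3098.7, others at most 2804), Lrrtm2 in HT vehicle female 2 (2705, others at most 2293), Il1rapl1 in WT vehicle female 1 (926, others at most 780.3), Lrrtm3 in WT fluoxetine female 4 (1695, others at most 1547) and Cadm4 in WT fluoxetine female 5 (8495, others at most 7832). Low values were Cntn2 in HT lithium female 2 (2003, others at least 3025), Cadm3 in WT fluoxetine male 2 (16500.5, others at least 17872), Ptprf in HT fluoxetine male 3 (3694, others at least 5382), Il1rapl1 in HT vehicle female 2 (746, others at least 817) and Adgrl2 in WT lithium male 5 (3506, others at least 4131).

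The fluoxetine effect in WT differed between males and females, by a test of the difference, for Cdh9 (-1.14), Igsf8 (-0.52) and Clstn3 (-0.28).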

How the results depend on the processing

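Counts of members that passed were 1 for fluoxetine in WT, 11 for lithium in WT, 3 for genotype, 4 for fluoxetine and 9 for lithium over all groups, and 0 elsewhere. For fluoxetine in WT the count was 0 with a minimum mean of 1, with only the groups compared, without trend or robust moderation, after quantile normalization, with the replicate block, with the length term, with both, and without WT vehicle males 2 and 3. In males only and without WT vehicle males 2 and 3 together, it was 0, as it was for lithium in WT and for genotype in vehicle. For fluoxetine in WT it was 3 with a minimum mean of 100, 2 with library weights and 4 in males only. For lithium in WT it was 1 with only the groups compared, and 0 with the length term, with block and length term, without WT vehicle males 2 and 3, and in females only. For genotype in vehicle it was 1 with a minimum mean of 100 and 10 in males only. Over all treatments genotype gave 5 after quantile normalization and 7 with library weights. Pooled fluoxetine and lithium each gave 0 with the length term and 0 with block and length term, and 2 without WT vehicle males 2 and 3; pooled fluoxetine gave 7 with library weights. Library weights also gave 1 for genotype under lithium and 4 for fluoxetine in HT. Without WT vehicle males 2 and 3, Lrrtm3 passed for fluoxetine in HT and Cadm4 for lithium in HT. Nrxn3 for lithium over both genotypes turned from 0.16 to -0.037 with the length term and to -0.040 with block and length term. The length trend differed between treatments, as given above, so the length term cannot be told from a drug effect. The causes were not tested.

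Leaving out 1 library in turn gave 3 to 14 members for lithium in WT, 0 to 4 for fluoxetine in WT, 0 to 6 for genotype in vehicle, 3 to 6 for genotype, 2 to 8 for fluoxetine and 6 to 13 for lithium over all groups, and 0 to 1 for each drug in HT (fluoxetine without HT vehicle male 2, lithium without HT vehicle female 5). For genotype in vehicle 6 passed without WT vehicle male 1, 5 without WT vehicle female 2 or male 4, 2 without HT vehicle female 4 or HT vehicle male 1, and 1 without HT vehicle female 3. For fluoxetine in WT the count moved in 17 of 18 cases. For pooled genotype 6 passed without HT lithium female 5 and 5 without HT lithium female 1. For pooled fluoxetine 8 passed without WT vehicle female 1, 7 without WT vehicle male 3 or HT vehicle male 2, and 2 when WT vehicle male 2 was left out. Counts over all genes moved as well in these fits. They ran from 796 to 1979 for lithium in WT, 5 to 563 for fluoxetine in WT and 34 to 394 for genotype in vehicle. Pooled, they were 501 to 872 for genotype, 486 to 1288 for fluoxetine and 1721 to 2644 for lithium. In HT they were 19 to 171 for fluoxetine and 56 to 226 for lithium.

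Replicate numbers did not pair the samples: over 300 same-number pairs the median correlation of deviations was -0.00781, and 10 of 57 libraries matched best with their own number. For 3 of the WT vehicle females the replicate number differs from the number in the library name, so the check and the block are in doubt for that group. With the replicate block, lithium in WT gave 9 members, and pooled genotype, fluoxetine and lithium 3, 4 and 9. Other pseudocounts and median centring moved no count by over 1.5 times. The WT vehicle arm has 8 libraries, which limits every comparison that uses it.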
